A study of Mus musculus with 4 samples.

Results

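The 28 genes described here make cholesterol and fatty acids, or control and carry their products, and were taken as a named list from 27998 gene identifiers, all 28 being present in both deposited count tables. They comprise 7 genes of the mevalonate arm (Acat2, Hmgcs1, Mvk, Pmvk, Mvd, Idi1, Fdps), 11 of the squalene and sterol arm (Fdft1, Sqle, Lss, Cyp51, Tm7sf2, Msmo1, Nsdhl, Hsd17b7, Ebp, Sc5d, Dhcr7), 4 regulators and carriers (Srebf1, Srebf2, Insig1, Stard4) and 6 of the fatty acid arm (Acly, Acaca, Fasn, Elovl6, Scd1, Scd2). The study profiled single cells of the mouse pancreas at embryonic day 15.5 by droplet (10x Genomics) RNA sequencing, with 1 library for each genotype. The control came from animals labelled WT whose design entry is OGTflox/flox, so Ogt carried loxP sites without Cre, and cells were sorted on what the design calls E-cadherin GFP. The library labelled knockout came from PdxCre;OGTflox/flox;CAG GFP animals, in which Cre is driven by Pdx in the pancreatic lineage, and cells were sorted on endogenous GFP. Ogt encodes O-GlcNAc transferase, which attaches a single sugar to nuclear and cytoplasmic proteins. Genotype, sort and library cannot be told apart. The number of embryos pooled is not given in the sources used here. The 2 samples of each genotype are sequencing runs of the same material, so no difference below was tested, and all intervals (95%) cover counting error only.

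Cholesterol is built from acetyl-CoA through mevalonate and isoprenoid units to squalene, which is closed to lanosterol and then trimmed in the endoplasmic reticulum. When membrane sterol is low, SCAP escorts the SREBP factors (encoded by Srebf1 and Srebf2) to the Golgi for cleavage, and the freed fragments activate most genes of both pathways. INSIG proteins hold SCAP back when sterol is plentiful, and Insig1 is itself an SREBP target. Fatty acid synthesis starts from citrate, which ATP citrate lyase (Acly) splits to cytosolic acetyl-CoA.

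SREBP acts at sterol regulatory elements with help from NF-Y, which binds CCAAT boxes, so the promoters of 6 members are printed. They are the members whose highest class in the knockout-labelled library was separated from the next by counting error and whose first window lies wholly upstream of the annotated gene: Hmgcs1 and Mvd (mesenchyme-like cells), Ebp (leukocyte-like), Pmvk and Acly (endocrine-like) and Srebf1 (trunk/ductal-like). Each run is the 250 bases before a RefSeq start on GRCm38.p6, 5′ to 3′ on the gene's strand, and capitals mark CCAAT on either strand and, in Hmgcs1, also the sterol regulatory element core TCACNCCAC. They lie at chr13:119690101-119690350 (plus strand), chr8:122443423-122443672 (minus), chrX:8193513-8193762 (minus), chr3:89454291-89454540 (plus), chr11:100528001-100528250 (minus) and chr11:60222582-60222831 (minus).
Hmgcs1: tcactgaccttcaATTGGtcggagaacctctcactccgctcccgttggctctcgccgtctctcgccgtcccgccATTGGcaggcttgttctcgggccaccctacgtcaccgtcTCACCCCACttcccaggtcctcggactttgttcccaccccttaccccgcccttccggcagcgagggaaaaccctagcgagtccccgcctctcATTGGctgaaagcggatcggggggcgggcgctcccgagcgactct
Mvd: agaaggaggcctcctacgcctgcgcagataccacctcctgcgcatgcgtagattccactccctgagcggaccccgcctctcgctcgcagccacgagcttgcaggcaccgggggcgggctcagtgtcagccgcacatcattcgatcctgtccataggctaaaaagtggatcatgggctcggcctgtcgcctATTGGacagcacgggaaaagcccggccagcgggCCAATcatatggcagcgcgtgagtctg
Ebp: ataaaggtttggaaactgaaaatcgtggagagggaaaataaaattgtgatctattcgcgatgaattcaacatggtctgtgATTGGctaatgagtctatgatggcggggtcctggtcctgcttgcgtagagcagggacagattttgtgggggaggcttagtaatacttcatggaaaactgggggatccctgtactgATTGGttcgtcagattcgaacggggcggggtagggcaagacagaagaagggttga
Pmvk: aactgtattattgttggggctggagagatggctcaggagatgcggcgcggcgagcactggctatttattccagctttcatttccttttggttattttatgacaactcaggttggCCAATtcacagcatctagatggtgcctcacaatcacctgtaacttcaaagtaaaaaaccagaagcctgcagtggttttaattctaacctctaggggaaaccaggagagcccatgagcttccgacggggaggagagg
Acly: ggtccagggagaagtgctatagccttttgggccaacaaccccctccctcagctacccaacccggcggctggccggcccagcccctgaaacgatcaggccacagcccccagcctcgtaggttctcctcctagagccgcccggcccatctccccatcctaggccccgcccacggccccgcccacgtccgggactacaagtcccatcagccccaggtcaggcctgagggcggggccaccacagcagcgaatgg
Srebf1: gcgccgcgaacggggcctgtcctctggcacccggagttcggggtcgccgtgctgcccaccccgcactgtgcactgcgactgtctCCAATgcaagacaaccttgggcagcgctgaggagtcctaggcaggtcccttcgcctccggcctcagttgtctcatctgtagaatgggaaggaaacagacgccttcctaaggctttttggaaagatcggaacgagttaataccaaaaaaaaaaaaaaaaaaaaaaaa
Windows were found for 22 of the 28 genes, some with several starts, giving 27 windows. CCAAT stood in at least 1 window of 18 genes and in 19 of the 27 windows (70.4%), against 33.8% of all 32851 windows. It occurred at least 2 times in 10 member windows, against 10.1% of all windows. Of the windows printed, that of Hmgcs1 held 3 copies, those of Mvd and Ebp 2 each, those of Pmvk and Srebf1 1 each, and that of Acly none. The sterol regulatory element core was found in 1 member window, that of Hmgcs1 (3.70%), and in 1.05% of all windows. These matches describe letters and not bound sites.

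After filtering, 921 control cells with 11810583 UMIs (unique molecular identifiers, counted transcript tags) and 553 knockout-labelled cells with 10357581 UMIs remained, at medians of 10867 and 16168 UMIs per cell. No barcode was shared between the libraries. Cells were clustered jointly and clusters were named from marker genes, so every class is written as "-like", and since the members could enter the clustering, differences between classes of 1 library are descriptions. Although all samples are labelled as pancreatic epithelial cells, leukocyte-like cells made up 76.8% of the control library and 8.86% of the knockout-labelled one. The control held 48 acinar-like, 37 trunk/ductal-like, 20 endocrine-like and 8 mesenchyme-like cells, and the knockout-labelled library 94, 130, 42 and 129, with a further 63 mesothelium-like cells that had no counterpart in the control. Clusters that took no name held 11.0% of control and 8.32% of knockout-labelled cells. Ogt itself was counted at 61.8 CPM (UMIs of the gene per 1000000 UMIs of the class, interval 57.4 to 66.5) in all control cells and 56.5 (52.0 to 61.2) in the knockout-labelled library. Ogt is X-linked, and Xist was counted in 22.8% of control cells and 99.1% of knockout-labelled cells, so a comparison of its level also compares that difference. By class Ogt was at 87.6 against 38.8 CPM in trunk/ductal-like, 123 against 29.5 in endocrine-like and 36.1 against 37.9 in acinar-like cells. In leukocyte-like cells it was at 64.6 against 49.6 CPM. Within the knockout-labelled library Ogt was highest in mesenchyme-like (107 CPM, 91.3 to 124) and mesothelium-like cells (96.3, 78.2 to 117). Whether the counted tags lie inside the floxed segment is not given in the sources used here, so these levels do not check the labels.

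Within the knockout-labelled library, which holds all 6 classes, the sterol genes stood highest in mesenchyme-like cells, the connective tissue cells that surround the pancreatic epithelium. The 18 genes of the mevalonate and sterol arms summed to 1003 CPM there (954 to 1054), 746 in mesothelium-like, 610 in acinar-like, 547 in trunk/ductal-like, 471 in endocrine-like and 407 in leukocyte-like cells. The interval of the mesenchyme-like sum lay above all 5 others. Of the 28 members, 18 had their highest level in mesenchyme-like cells, 3 in mesothelium-like, 3 in endocrine-like, 2 in trunk/ductal-like, 1 in acinar-like and 1 in leukocyte-like cells. Of 12651 genes with at least 20 UMIs, 17.5% were highest in mesenchyme-like, 15.1% in mesothelium-like, 26.6% in endocrine-like, 15.9% in trunk/ductal-like, 8.32% in acinar-like and 16.6% in leukocyte-like cells. Many of these first places are not separated from the next class: the interval of the ratio of first to second lay above 1 for 5 of the 18 (Hmgcs1, Mvd, Sqle, Cyp51 and Insig1). Leukocyte-like cells were lowest for 15 members (32.5% of genes) and endocrine-like cells for 8 (16.2%).

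**Figure D1:**
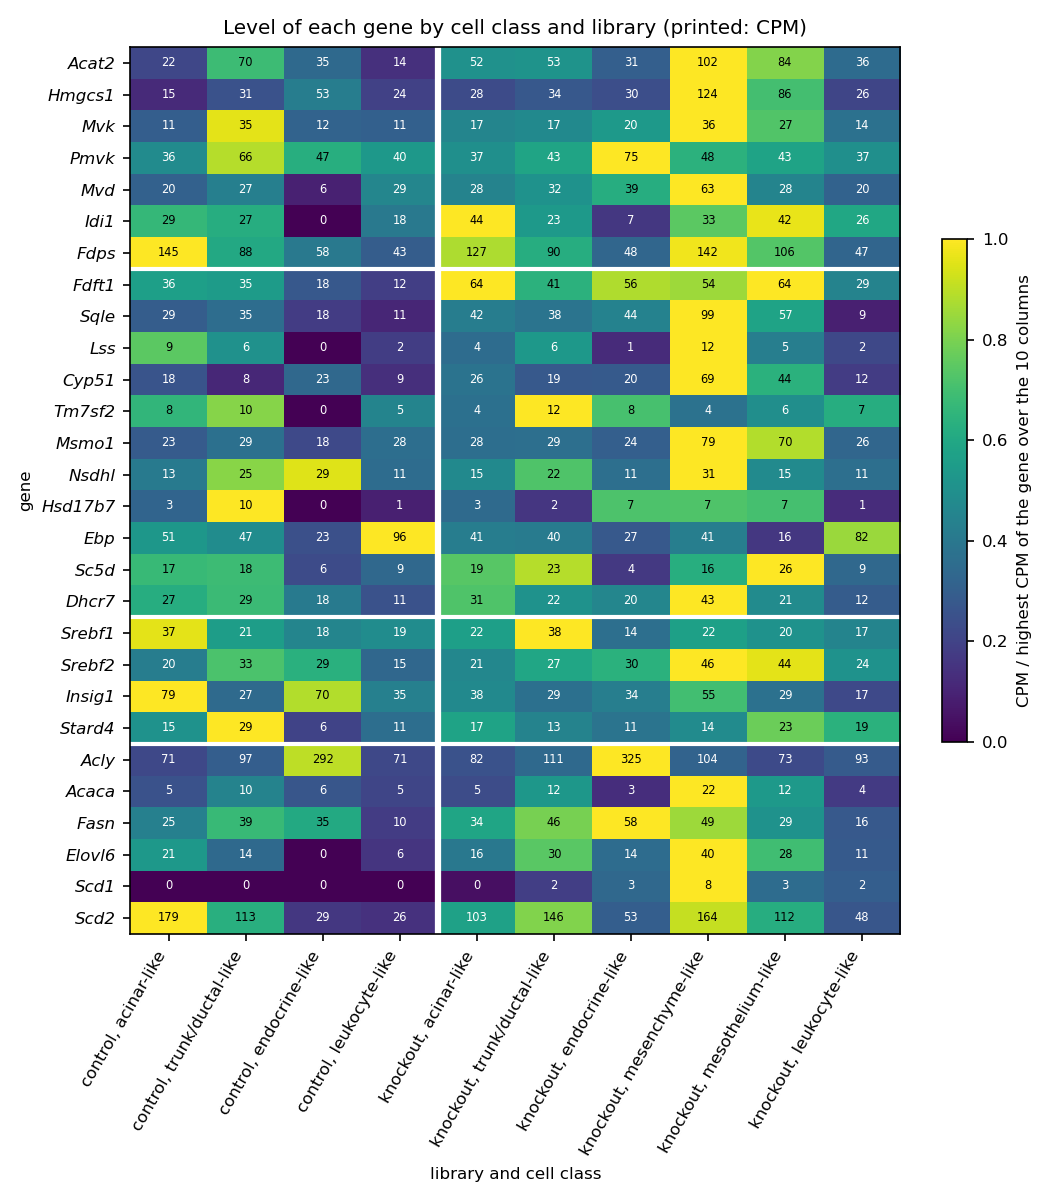
Level of each of the 28 genes (vertical axis) in each cell class of the control and knockout-labelled libraries (horizontal axis), with CPM printed in each cell and colour giving the level relative to the gene's own highest; control classes with under 20 cells are left out and the 4 gene groups are divided by white lines. The mesenchyme-like column holds the highest value of the knockout-labelled library for 18 genes, while Acly is highest in both endocrine-like columns and Ebp in the control leukocyte-like column.

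Set against the 5 other classes of its library, the mesenchyme-like class had 17 of 28 members at least 1.5-fold higher, where 21.5% of 12651 genes with at least 20 UMIs were, and 1 lower (24.9% of genes). The median log2 ratio of the members was 0.82, against -0.04 over all genes. Hmgcs1, which makes the HMG-CoA that feeds the pathway, reached 123.5 CPM (107 to 142) against 37.2 in the other classes, a ratio of 3.32 (2.76 to 3.99). Cyp51, the lanosterol demethylase, was at 69.1 against 24.3 CPM (ratio 2.84, 2.22 to 3.61). Sqle, the squalene epoxidase, was at 98.6 against 39.3 CPM (ratio 2.51, 2.06 to 3.05). Msmo1, which removes methyl groups from the sterol ring, was at 78.7 against 33.1 CPM (ratio 2.38).

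The order was not shared by every enzyme. Tm7sf2, a sterol reductase, was the 1 member at least 1.5-fold lower in mesenchyme-like cells, at 4.48 against 7.66 CPM on 7 UMIs (ratio 0.585, 0.226 to 1.28). Sc5d, the lathosterol desaturase, was at 16.0 against 18.7 CPM, Fdft1, which joins farnesyl units into squalene, at 54.4 against 52.3, and Idi1, the isopentenyl diphosphate isomerase, at 32.6 against 32.0. These 3 levels were separated by less than counting error. Fdps, which makes farnesyl diphosphate, was at 142 CPM in mesenchyme-like and 127 in acinar-like cells, and the interval of that ratio held 1 (1.12, 0.944 to 1.33).

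Among the regulators, the 2 SREBP genes had different orders. Srebf2, the factor most tied to sterol genes, was at 46.1 CPM in mesenchyme-like and 44.2 in mesothelium-like cells, against 21.3 in acinar-like and 23.6 in leukocyte-like cells. Insig1 was at 55.1 CPM in mesenchyme-like cells and between 17.4 and 37.6 in the other 5 classes. Srebf1, the factor most tied to fatty acid genes, was instead highest in trunk/ductal-like cells, at 38.4 CPM (31.3 to 46.7), 1.77-fold (1.19 to 2.69) over the next class. Rai1, which overlaps Srebf1 on the opposite strand, was also highest there, at 35.3 CPM against 9.92 to 26.7 in the other 5 classes. Stard4, a soluble sterol carrier, ranged only from 11.2 to 22.6 CPM over the 6 classes, and its first and second class were not separated.

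In the fatty acid arm, Acaca (acetyl-CoA carboxylase) was at 21.8 CPM in mesenchyme-like cells and 7.66 in the others (ratio 2.84, 1.81 to 4.38), and Elovl6, an elongase, at 39.7 against 21.1 (1.88). Scd2, the Δ9 desaturase isoform, was at 164 CPM in mesenchyme-like and 146 in trunk/ductal-like cells, which did not separate (ratio 1.13, 0.957 to 1.32). Scd1, its paralog, had 26 UMIs in the whole knockout-labelled library, 13 of them in mesenchyme-like cells, and 0 of 11810583 UMIs in the control, which allows up to 0.254 CPM at 3 counts. Reads of near-identical paralogs can be split or dropped in counting, and how they were treated is not given in the sources used here.

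The mesenchyme-like level was carried unevenly by its cells. With each cell thinned to 5000 UMIs, the sterol genes averaged 5.22 UMIs per cell in 129 mesenchyme-like cells with a variance of 25.2, a variance-to-mean ratio of 4.82, where counting alone gives 1. That ratio was 2.91 in mesothelium-like cells and between 1.30 and 1.79 in the other 4 classes. At least 10 sterol UMIs were held by 19 of 129 mesenchyme-like cells (14.7%, exact binomial interval 9.11 to 22.0), 4 of 63 mesothelium-like cells and at most 2 cells in any other class of the library. Before thinning, the sum per mesenchyme-like cell ran from 398 CPM at the lower quartile through 657 at the median to 1436 at the upper quartile, with a highest cell of 4949. Across these cells the UMIs of the mevalonate and sterol arms varied together (Pearson's r 0.605), and likewise in mesothelium-like cells (0.545). Leukocyte-like cells of the library gave 0.335, trunk/ductal-like cells 0.21, endocrine-like cells 0.095 and acinar-like cells 0.016. In the control, acinar-like cells gave 0.287, leukocyte-like cells 0.247 and trunk/ductal-like cells -0.196. Mean UMIs per arm were lower in all these classes than in mesenchyme-like cells, and the part of counting error in r was not tested. Each value is a description over cells of 1 library at equal depth. In mesenchyme-like cells the thinned sterol sum showed little relation with the CPM of 10 cell division markers, taken before thinning (r -0.05).

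**Figure D2:**
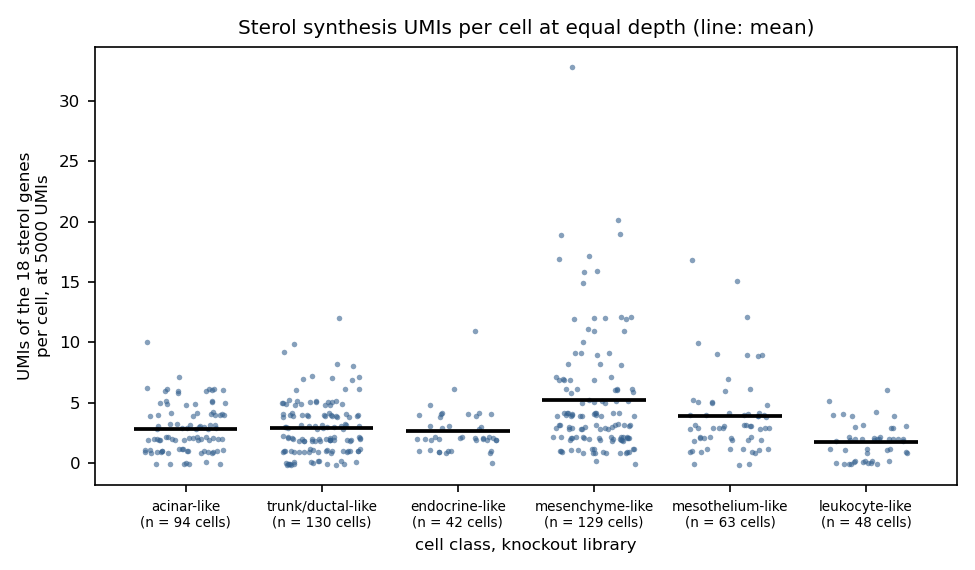
UMIs of the 18 sterol genes per cell (vertical axis) after thinning each cell to 5000 UMIs, by cell class of the knockout-labelled library (horizontal axis); each point is a cell, slightly displaced, and the line is the class mean. The 129 mesenchyme-like cells spread up to 33 UMIs around a mean of 5.22, while acinar-like cells stay at 10 or fewer.

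The 19 mesenchyme-like cells with at least 10 sterol UMIs held 287 of the class's 674 thinned sterol UMIs (42.6%), and the other 110 cells averaged 3.52 UMIs. In mesothelium-like cells 4 such cells held 22.0%, and the other 59 averaged 3.25. Without the 5 mesenchyme-like cells of highest sterol CPM (3.88% of the class), the sum was 1.60-fold over the other classes in place of 1.75-fold, and 16 of the 17 higher members remained at least 1.5-fold higher (21.4% of genes). The 2 clusters of the class, led by Col1a1 and by Sfrp2, held sterol sums of 1010 and 977 CPM. In mesothelium-like cells the sum was 1.18-fold over the other classes and 0.961-fold without its 5 cells of highest sterol CPM, which are 7.94% of that class. Of the 28 members 5 were at least 1.5-fold higher there (18.5% of genes), among them Hmgcs1 (1.84, 1.44 to 2.32), Msmo1 (1.88, 1.44 to 2.44) and Srebf2 (1.55, 1.10 to 2.14), and 2 lower (22.7%), Ebp (0.364, 0.206 to 0.599) and Acly (0.629, 0.490 to 0.797). Without the 5 cells, 1 was higher (18.6% of genes) and 10 were lower (22.7%). In both classes the cells left out were chosen by their sterol CPM, and the other classes were left whole. Some fall was therefore fixed in advance. The 12 mesenchyme markers summed to 13515 CPM in mesenchyme-like cells, with none at 0. The 15 acinar markers summed to 5902 CPM there, with none at 0, and to 5689 to 6945 in the other non-acinar classes of the library, with at most 2 at 0. The part of free RNA in these levels was not tested. In the control, only 8 mesenchyme-like cells were found, and their sterol sum was 505 CPM (359 to 691) on 39 UMIs. The mevalonate arm and the squalene and sterol arm held 345 and 251 CPM in control trunk/ductal-like cells. In control acinar-like cells they held 277 and 233 CPM. The mesenchyme-like sum did not exceed that of either class, so the order of the knockout-labelled library was not seen in these few control cells.

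Endocrine-like cells, the hormone cells and their precursors, carried an uneven set. Acly, which supplies acetyl-CoA, was high in both libraries, and many other members were low in the knockout-labelled one. Acly stood at 325 CPM (284 to 369) in the 42 knockout-labelled cells and at 292 (217 to 385) in the 20 control cells, whereas the other classes with at least 20 cells lay between 70.5 and 111 CPM in both libraries. Within the knockout-labelled library the ratio to the other classes was 3.45 (2.97 to 3.99). Pmvk, phosphomevalonate kinase, was 1.79-fold (1.32 to 2.39), Fasn, the fatty acid synthase, 1.52-fold (1.07 to 2.11) and Hsd17b7 1.91-fold higher on 5 UMIs. These were the 4 members at least 1.5-fold higher, where 26.9% of all genes were. At least 1.5-fold lower were 14 members, against 25.7% of genes. Idi1 was at 7.03 CPM against 34.1 (ratio 0.206, 0.0665 to 0.486), Sc5d at 4.22 against 19.3, Fdps at 47.8 against 109, and Scd2 at 53.4 against 122 CPM. In the control endocrine-like cells Idi1 had no UMI among 171129, which allows up to 17.5 CPM at 3 counts, and Scd2 was at 29.2 CPM. Other members of the 14 were not low there: Hmgcs1 was at 52.6 CPM on 9 UMIs, Cyp51 at 23.4 on 4 and Nsdhl at 29.2 on 5. Each of these levels was above the other control classes with at least 20 cells. Pmvk, at 46.7 CPM on 8 UMIs, was below the 66.2 of control trunk/ductal-like cells.

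**Figure D3:**
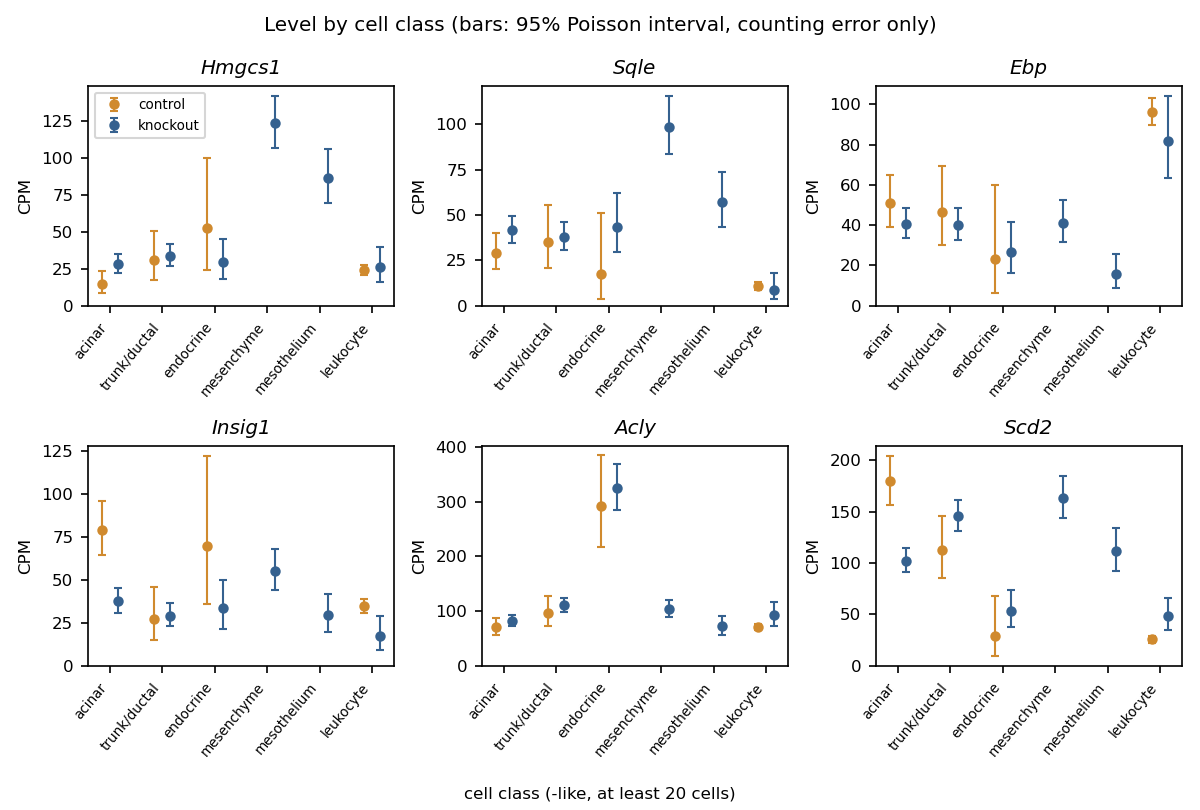
Levels in CPM (vertical axes) of 6 members by cell class (horizontal axes) in the control and knockout-labelled libraries, with exact Poisson 95% intervals; classes with under 20 cells are left out. Acly is near 300 CPM in endocrine-like cells of both libraries (292 and 325), Ebp is highest in leukocyte-like cells (96.2 and 81.9), and Insig1 and Scd2 in acinar-like cells are higher in the control.

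Leukocyte-like cells were low for most members in each library, and Ebp was the 1 member at least 1.5-fold higher in both. In the control, 18 of 26 measured members were at least 1.5-fold lower than in the other named classes (31.0% of genes) and 1 higher (26.1%), and the median log2 ratio was -0.72 against -0.14 over all genes. In the knockout-labelled library 19 of 28 were lower (38.8% of genes) and 1 higher (17.7%). Ebp, the sterol Δ8-Δ7 isomerase, was the higher one both times, at 96.2 CPM (89.6 to 103) in control leukocyte-like cells against 46.6 in the other control classes, and at 81.9 (63.3 to 104) in the knockout-labelled ones. Scd2 was lowest relative to other classes in the control, at 25.7 against 149 CPM, and Fasn was at 10.1 against 32.9. Hmgcs1, at 24.1 against 24.0 CPM, and Msmo1, at 28.4 against 24.5, were not lower in the control leukocyte-like cells, and Mvd, mevalonate diphosphate decarboxylase, was at 29.2 against 19.6 (ratio 1.49, 1.06 to 2.14). In the knockout-labelled leukocyte-like cells Stard4 (1.20, 0.655 to 2.05) and Tm7sf2 (1.05, 0.370 to 2.40) were not lower. Ebp and Nsdhl are X-linked too, and the part of the difference in Xist in comparisons of these 2 genes between libraries was not tested.

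Among control leukocyte-like clusters the sterol sum differed by cluster. They summed to 459 CPM (429 to 491) in the cluster led by the monocyte genes Ifitm6 and Plac8 and to 463 (428 to 501) in a dividing cluster led by Ly6c2. In the clusters led by Lyve1 and by Hmox1 with C1q genes, which mark tissue macrophages, the sums were 312 (287 to 340) and 285 (258 to 313). An unnamed cluster with 14 of 15 leukocyte markers was led by haemoglobin genes, with Lyve1, Pf4 and Mrc1 also among its 10 leading genes. Its sterol sum was 300 CPM (273 to 328), while its division markers, at 2544 CPM, were close to the 2827 of the Ly6c2 cluster. So of the 2 clusters with high division markers, 1 had a high sterol sum and 1 a low one.

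**Figure D4:**
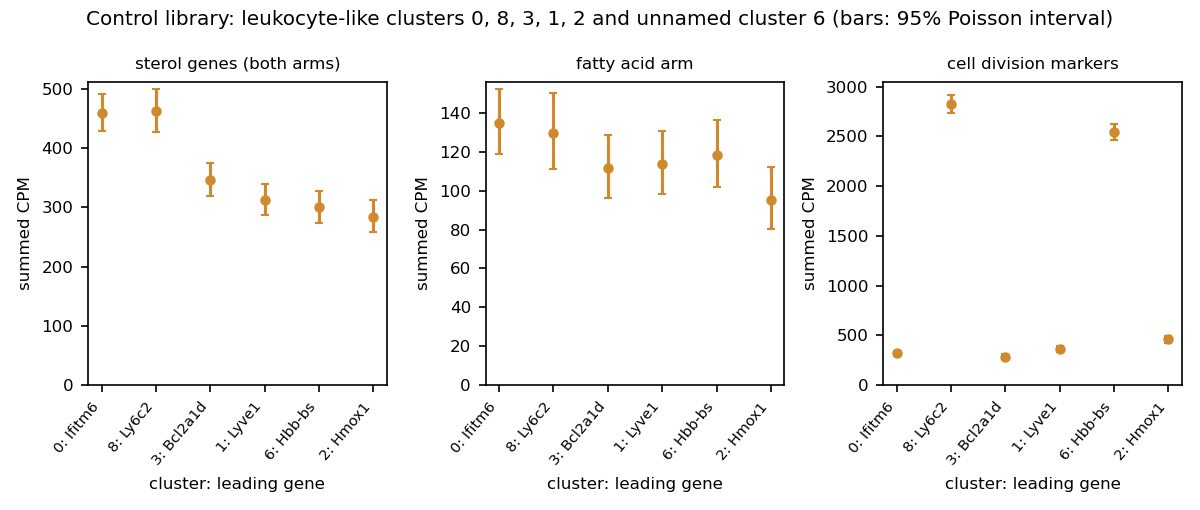
Summed CPM (vertical axes) of the 18 sterol genes, the 6 fatty acid genes and 10 cell division markers in 6 control clusters named on the horizontal axes by number and leading gene, with exact Poisson 95% intervals. Clusters 0 and 8 are highest for the sterol genes (459 and 463 CPM), and clusters 8 and 6 for division markers (2827 and 2544 CPM).

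The epithelial classes held different places in the 2 libraries. In the control, acinar-like cells had 13 of 26 members at least 1.5-fold higher than the other named classes (22.7% of genes) and 2 lower (36.2%), led by Scd2 at 179 against 31.9 CPM (ratio 5.63, 4.71 to 6.73), Elovl6 (3.26) and Fdps (145 against 45.7 CPM, 3.17). Control trunk/ductal-like cells had 17 higher (33.4%) and 2 lower (22.3%), led by Acat2 at 70.1 against 16.1 CPM (4.36, 2.95 to 6.30) and Mvk (3.18). The other control classes are mostly leukocyte-like cells, which are low for these genes. In the knockout-labelled library, acinar-like cells had 1 member higher, Idi1 (1.62, 1.28 to 2.04; 5.80% of genes), and 9 lower (47.0%), with a median log2 ratio of -0.33 against -0.52 over all genes. Trunk/ductal-like cells there had 2 higher (17.9%), Tm7sf2 (2.21, 1.33 to 3.65) and Srebf1 (1.91, 1.46 to 2.48), and 6 lower (19.4%), among them Hmgcs1 (0.587) and Cyp51 (0.531). The reference differs between libraries, so these counts are not compared with each other.

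Between libraries, the acinar-like cells, which make digestive enzymes, kept nearly the same total for the 28 genes (ratio of knockout-labelled to control 0.984, 0.920 to 1.05). Of 26 measured members, 5 were at least 1.5-fold higher (15% of 9546 genes), 5 at least 1.5-fold lower (12.8%) and 16 between, with a median log2 ratio of 0.20 against 0.04 over all genes. Counting intervals lay above 1 for 4 (Acat2, Hmgcs1, Idi1, Fdft1; 12.2% of genes), below 1 for 3 (Srebf1, Insig1, Scd2; 11.1%) and held 1 for 19. These counts lie near the shares over all genes, so they do not set the members apart from other genes. Of the 5 higher members 4 belong to the mevalonate arm. Acat2, the cytosolic thiolase, was at 21.9 CPM (14.6 to 31.7) in the control and 51.8 (43.9 to 60.7) in the knockout-labelled cells, a ratio of 2.36 (1.57 to 3.67). Hmgcs1 was at 14.9 and 28.1 CPM (ratio 1.89, 1.14 to 3.29), Fdft1 at 36.1 and 63.6 (1.76, 1.27 to 2.49), Idi1 at 29.0 and 43.7 (1.51, 1.04 to 2.23), and Mvk, mevalonate kinase, at 11.0 and 16.6 (1.51, 0.821 to 2.96). The sum of the 18 sterol genes was 1.20-fold higher (1.09 to 1.31).

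The 5 lower members were 2 regulators, 2 sterol enzymes and the desaturase Scd2. Insig1 was at 79.2 CPM (64.5 to 96.2) in control and 37.6 (30.9 to 45.2) in knockout-labelled acinar-like cells, a ratio of 0.475 (0.359 to 0.628). Scd2 was at 179 and 103 CPM (ratio 0.571, 0.480 to 0.681) and Srebf1 at 36.8 and 21.7 (0.588, 0.397 to 0.876). Lss, which closes squalene to lanosterol, was at 8.62 and 4.06 CPM and Tm7sf2 at 7.84 and 4.40, both on few UMIs and with intervals that hold 1. Srebf2, at 19.6 and 21.3 CPM, differed by less than counting error. Hsd17b7 and Scd1 had under 20 UMIs and were not compared. The 4 regulators summed to 0.648-fold (0.538 to 0.782) and the fatty acid genes to 0.794-fold (0.700 to 0.901) of the control.

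Several measures moved with these acinar-like differences. The 2 libraries' acinar-like cells fell into different clusters, led by Prss1 in the control and Cpa1 in the knockout-labelled library. Division markers summed to 0.741-fold of the control, 3 of 10 being at least 1.5-fold lower. The 15 leukocyte markers summed to 3687 CPM in control and 502 in knockout-labelled acinar-like cells, with none at 0 in either. Their part in the result was not tested. Control leukocyte-like cells held less Insig1 (34.6 CPM), Scd2 (25.7) and Srebf1 (18.7) than control acinar-like cells. They also held less Acat2 (14.2 CPM) and Fdft1 (11.9), which were higher in the knockout-labelled acinar-like cells. The 5 control cells with most UMIs of each gene held 35.6% of Insig1, 34.1% of Scd2 and 31.9% of Srebf1 UMIs of their class. That share was larger for the 5 higher members, from 37.8% (Idi1) to 42.9% (Mvk). For Tm7sf2 and Lss, on few UMIs, it was 50% and 72.7%.

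**Figure D5:**
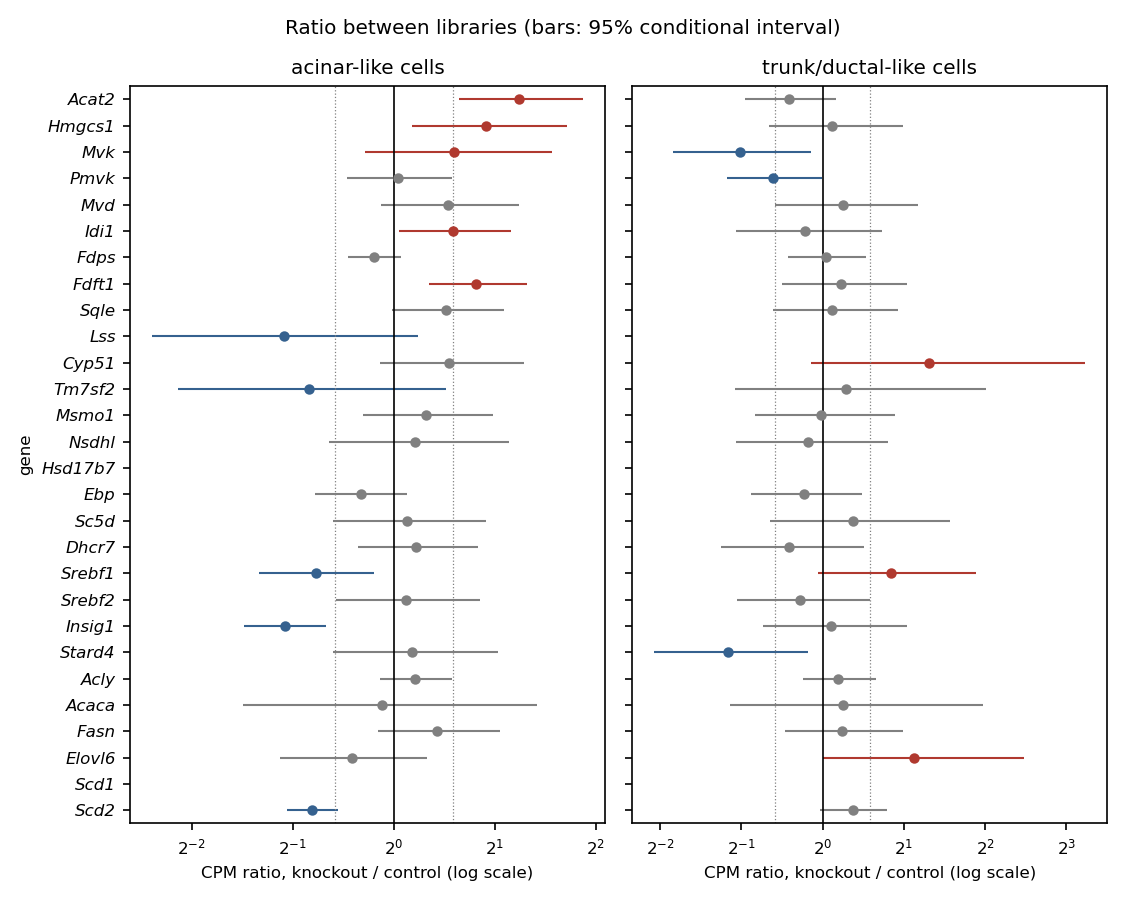
Ratio of CPM in the knockout-labelled over the control library (horizontal axes, log scale) for each measured member (vertical axis) in acinar-like and trunk/ductal-like cells, with exact conditional 95% intervals; red and blue mark ratios past 1.5-fold in either direction (dotted lines), and genes under 20 UMIs are left out. In acinar-like cells Acat2 is highest (2.36) and Lss (0.471) and Insig1 (0.475) lowest, and in trunk/ductal-like cells most intervals hold 1.

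In trunk/ductal-like cells, the progenitor and duct lineage, 25 members were measured: 3 were at least 1.5-fold higher (20% of 9886 genes), 3 lower (14.2%) and 19 between, with a median log2 ratio of 0.12 against 0.06 over all genes. Intervals excluded 1 for 4 (19.3% of genes), that of Elovl6 narrowly. Elovl6 was at 13.6 CPM in the control and 29.6 in the knockout-labelled cells (ratio 2.17, 1.00 to 5.58), Mvk at 35.1 and 17.3 (0.493, 0.280 to 0.905), Pmvk at 66.2 and 43.4 (0.656, 0.443 to 0.993) and Stard4 at 29.2 and 13.1 (0.447, 0.237 to 0.884). Cyp51 (2.47-fold on 4 control UMIs) and Srebf1 (1.79-fold) had intervals that held 1, and Rai1, which overlaps Srebf1, was at 21.4 and 35.3 CPM. Insig1, at 27.3 and 29.2 CPM, and Acat2, at 70.1 and 52.6, differed by less than counting error. Control cells of this class numbered 37, the classes fell into different clusters (the knockout-labelled one led by Cym), leukocyte markers summed to 3655 and 509 CPM with none at 0, and division markers were 1.32-fold higher in the knockout-labelled cells. Their part was not tested. At Leiden resolution 0.5, or with each genotype clustered alone, 0 control cells took this name. Without the 5 cells with most UMIs of each gene, 14 of 24 measured members were higher and 1 lower. That leaves out 5 of 37 control and 5 of 130 knockout-labelled cells for each gene. The share over all genes was not computed for this setting, so these counts do not set the members apart.

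In leukocyte-like cells 7 of 25 members were at least 1.5-fold higher in the knockout-labelled library (15.4% of 10691 genes) and 1 lower (16.8%), with a median log2 ratio of 0.21 against 0.02 over all genes. Acat2 was at 14.2 CPM in the control and 36.0 in the knockout-labelled cells (ratio 2.54, 1.63 to 3.84), Fdft1 at 11.9 and 28.5 (2.41, 1.46 to 3.82) and Scd2 at 25.7 and 48.4 (1.88, 1.30 to 2.66). Stard4 (1.77), Elovl6 (1.83), Fasn (1.59) and Srebf2 (1.53) had intervals that held 1. Insig1 was at 34.6 and 17.4 CPM (ratio 0.502, 0.271 to 0.857). Different cells make up the class: 37 of the 49 knockout-labelled cells belong to a cluster led by neutrophil-type genes such as S100a8 and Ngp, which held no control cell. Division markers summed to 1.37-fold of the control (1.27 to 1.47), 3 of 10 being at least 1.5-fold higher, and their part was not tested. Without the 5 cells with most UMIs of each gene in each library, which are a larger share of the 49 cells than of the 707, 2 members were higher, 9 lower and the median was -0.43. The share over all genes was not computed for this setting, so these counts do not set the members apart. Ctsb overlaps Fdft1 on the opposite strand and was at 2734 CPM in control leukocyte-like cells, where Fdft1 was at 11.9.

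Over all cells of each library, 20 of 28 members were at least 1.5-fold higher in the knockout-labelled library (38.6% of 13806 genes) and 1 lower, Ebp (18.3%), with a median log2 ratio of 0.91 against 0.33 over all genes. When the knockout-labelled classes were weighted by the control's class shares, 7 of 27 members were higher (22.9% of genes) and the median was 0.32 against 0.10 over all genes.

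Of 41 other genes of these pathways, the 7 of SREBP processing were measured in all 3 classes and none differed 1.5-fold in any. Among 12 genes of sterol uptake, storage and efflux, 4 of 8 measured in acinar-like cells were lower in the knockout-labelled library (12.8% of genes) and none higher: Apoe, a lipoprotein component (2253 and 263 CPM), Abca1, the cholesterol exporter (18.8 and 7.11), Soat1, which esterifies cholesterol (25.1 and 10.8), and Npc1, which exports it from lysosomes (7.84 and 5.08, on few UMIs). In trunk/ductal-like cells, where 14.2% of genes were lower, 4 of 10 were lower (Npc2, Abca1, Abcg1 and Apoe) and 1 higher (Vldlr, on 2 control UMIs). In leukocyte-like cells, where 16.8% of genes were lower, 6 of 11 were lower and none higher: Abca1 (126 and 49.6 CPM), Abcg1, Nr1h2, Nr1h3, Mylip (22.1 and 4.96) and Apoe. Apoe was at 13902 CPM in control leukocyte-like cells and Abca1 at 126, above their levels in every other control class, and leukocyte markers moved with them as given above. Their part in the acinar-like and trunk/ductal-like values was not tested.

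Of the 6 other sterol enzymes, 1 passed 1.5-fold: Acat1, the mitochondrial thiolase, in trunk/ductal-like cells, at 101 and 42.6 CPM (ratio 0.421, 0.300 to 0.597). Of 16 other fatty acid genes, 2 of 10 measured in acinar-like cells were higher (Me1, malic enzyme, and Acsl3, an acyl-CoA synthetase) and 1 lower (Slc25a1, the mitochondrial citrate carrier, 39.2 and 25.4 CPM). In trunk/ductal-like cells 4 of 12 were higher (Slc25a1, Fads2, Acsl3 and Dgat2) and 1 lower (Mlxipl), and all 5 intervals held 1. In leukocyte-like cells Dgat1 (2.01-fold) and Dgat2 (2.49-fold), which complete triglycerides, were higher, and Fads1 (0.644) and Mid1ip1 (0.647) lower.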

How the data were processed

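The authors deposited raw UMI counts per gene and cell, 1 table a genotype. The submitters' processing notes list Cell Ranger 2.0.0, mm10, Seurat 2.0 and DESeq2 1.14.1, with no role given for each. Both sequencing runs of a genotype are pooled in its table. Symbols, positions and overlaps came from GENCODE M21 (GRCm38). Overlapping genes (Fdft1 with Ctsb, Cyp51 with Akap9, Srebf1 with Rai1, Tm7sf2 with Vps51, Fdps, Mvd and Acaca with predicted genes) make those counts uncertain, since strand use in counting is not given in the sources used here. Barcodes with under 500 genes or over 10% mitochondrial UMIs and Scrublet doublets (4 control, 8 knockout-labelled) were removed with scanpy 1.11.5. Cells were clustered jointly (2000 variable genes, 30 components, 15 neighbours, Leiden resolution 1, leidenalg 0.10.2). Clusters were named by their best-scoring marker list, provided that at least 5 listed genes were detected and that a rival list did not have more genes among the 10 leading ones. Counts were summed per class and scaled to CPM. Ratios need at least 20 UMIs, and classes at least 30 cells in both libraries to be compared between libraries. Intervals are exact Poisson, conditional or binomial. The conditional interval was tested on simulated Poisson counts only, which lack the added spread between cells, so that test does not cover it. Scaling alternatives used edgeR 4.0.16 and DESeq2 1.42.0. All 28 members were named, and other pathway genes only where past 1.5-fold. The rule for the promoters printed was set after the values were seen. The members and lists were chosen with earlier results of these data known, and the naming rule after the data had been seen. Promoter windows came from RefSeq (GRCm38.p6), and 6 members without one are Fdps, Fdft1, Sqle, Stard4, Scd1 and Scd2.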

Additional observations from a re-analysis of the deposited data

Results flagged for a closer look

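For 4 members the ratio of knockout-labelled to control CPM lay past 1.5-fold in opposite directions in 2 cell classes. Mvk was at 1.51 in acinar-like and 0.493 in trunk/ductal-like cells, and its acinar-like ratio was 0.927 at Leiden resolution 0.5. Srebf1 was at 0.588 in acinar-like and 1.79 in trunk/ductal-like cells. Stard4 was at 0.447 in trunk/ductal-like and 1.77 in leukocyte-like cells. Scd2 was at 0.571 in acinar-like and 1.88 in leukocyte-like cells. With 1 library per genotype, none of these differences between classes was tested. The intervals of both ratios exclude 1 for Scd2 and not for the other 3 genes.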

How the results depend on the processing

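No paired analysis was possible because the run numbers 1 and 2 mark sequencing runs of the same material, pooled in each table. For the same reason no replicate could be left out. Over all cells, members at least 1.5-fold higher numbered 20. They were 12 with TMM scaling, 10 with 10 CPM added, 11 at a fold limit of 2 and 7 with control class shares. The median log2 ratio of 0.91 became 0.54 with TMM scaling, 0.55 with DESeq2 size factors, 0.49 with 10 CPM added and 0.32 with control class shares. In acinar-like cells the 5 higher members became 3 with TMM scaling, DESeq2 size factors, 10 CPM added or Leiden resolution 0.5, 1 at a fold limit of 2, 2 of 11 measured after thinning to 5000 UMIs (26 were measured as reported) and 10 of 23 without the 5 cells with most UMIs of each gene. The 5 lower became 3 with at least 50 UMIs, after thinning (of the same 11) or without those 5 cells, and 2 with 10 CPM added, at a fold limit of 2 or in cells under 1000 CPM of division markers (an alternative chosen after seeing the data). In trunk/ductal-like cells the 3 lower became 5 with no floor. Without the 5 cells, 14 were higher, 1 lower and the median moved from 0.12 to 0.65. In leukocyte-like cells the 7 higher became 3 with 10 CPM added and 2 at a fold limit of 2. The 1 lower became 2 with TMM scaling, DESeq2 size factors, the mean of each cell's own CPM, doublets kept or Leiden resolution 2, 4 after thinning and 0 at a fold limit of 2. Without the 5 cells, 2 were higher, 9 lower and the median moved from 0.21 to -0.43. Leaving out 5 cells takes a larger share of the smaller class. Except with control class shares, the share over all genes was not computed under these alternatives. The counts of members therefore do not set them apart from other genes. Of 1591 gene values under alternatives, 1462 lay within the counting interval of the reported ratio. Another 126 lay outside it in the same direction or without a call, and 3 reversed. Those were Mvk in acinar-like cells (0.927 at Leiden resolution 0.5, where 85 control cells held that name), Elovl6 (0.856 without the 5 cells) and Srebf2 (0.565 after thinning) in leukocyte-like cells. The cause of these reversals was not tested. Part of the 1462 was fixed in advance. No floor (104 values), at least 50 UMIs (96) and a fold limit of 2 (104) leave each ratio as it was. At least 1000 genes (104) kept the same 921 and 553 cells. Such values do not measure stability. At resolution 0.5, or with each genotype clustered alone, no control cell was named trunk/ductal-like, so that comparison had no value.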

Other observations

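Among unnamed clusters of the knockout-labelled library, a first of 31 cells held the sterol genes at 544 CPM (482 to 611). A second, of 15 cells led by Kazald1, Nkx2-5 and Tlx1, held them at 472 CPM (377 to 583). The first was led by the mast cell genes Cpa3 and Cma1, but the lymphoid genes Cd7 and Ltb were also among its 10 leading ones. Its best-scoring marker list was the lymphoid one, with 8 of 11 genes detected. Ebp was at 53.8 CPM in the first, below the 88.7 of the S100a8-led cluster of the same library. Fatty acid genes summed to 267 CPM in the first and 214 in the second.

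In the knockout-labelled library Vldlr, a lipoprotein receptor, was at 20.5 CPM in mesenchyme-like and 21.6 in mesothelium-like cells, against 2.48 to 7.03 in the other 4 classes. Fads2 showed no such order, with levels of 3.72 to 8.84 CPM over the 6 classes.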
